A study of Mus musculus with 7 samples.

Results

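The core circadian clock of the mouse was followed through 10 genes, Arntl, Clock, Npas2, Nr1d1, Nr1d2, Per1, Per2, Per3, Cry1 and Cry2. They were taken by symbol from a table of 21487 genes, and all 10 were present and were tested. The RNA came from gastrocnemius, the fast calf muscle, in 7 libraries. The 3 controls are labelled WT and described as flox mice, and the 4 knockouts lack DJ-1 (gene Park7) in skeletal muscle only. Every muscle had been immobilized to make it waste, so no library shows the clock of a freely used limb. The Cre driver, the age and sex of the mice, the hour of tissue collection and whether each library is a separate mouse are not stated in the labels. The p-values therefore measure only the spread between these libraries, which may be technical.

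The clock is a feedback loop of transcription. The proteins BMAL1 (gene Arntl) and CLOCK, or its relative NPAS2, bind E-boxes in DNA and switch on the Per and Cry genes, whose products return to the nucleus and silence them. In a second loop the same activators switch on Nr1d1 and Nr1d2, whose products REV-ERB alpha and REV-ERB beta repress Arntl through RORE sites that the activator RORA also uses. Output factors such as DBP act on D-boxes, where NFIL3 (E4BP4) represses. In muscle these RNAs rise and fall daily, with Arntl and Npas2 roughly opposite in phase to Dbp and the Per genes, and the cycle influences fuel use and the timing of muscle-specific genes.

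Some promoters of these genes hold letters of the sites named above. RefSeq promoters on GRCm38.p6 (250 bases before to 50 after a start site) were found for 9 of the 10 genes, 13 promoters in all. Npas2, Nr1d2 and Clock held none of the motifs searched, and Per2 had no entry. Both strands were searched for the E-box CACGTG, the related E'-box CACGTT, the D-box as TTANGTAA, the RORE by its consensus and the cAMP response element TGACGTCA. The 4 promoters below are shown because each carries a site of the loops described above, with E-box, D-box or RORE letters in capitals, 5' to 3' along the gene.
Per3: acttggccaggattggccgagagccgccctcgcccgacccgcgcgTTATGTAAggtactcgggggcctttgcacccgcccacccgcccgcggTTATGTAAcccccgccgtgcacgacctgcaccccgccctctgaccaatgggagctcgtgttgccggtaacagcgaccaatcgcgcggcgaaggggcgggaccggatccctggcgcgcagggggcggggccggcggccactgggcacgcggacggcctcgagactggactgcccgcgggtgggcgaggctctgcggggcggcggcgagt
Per1: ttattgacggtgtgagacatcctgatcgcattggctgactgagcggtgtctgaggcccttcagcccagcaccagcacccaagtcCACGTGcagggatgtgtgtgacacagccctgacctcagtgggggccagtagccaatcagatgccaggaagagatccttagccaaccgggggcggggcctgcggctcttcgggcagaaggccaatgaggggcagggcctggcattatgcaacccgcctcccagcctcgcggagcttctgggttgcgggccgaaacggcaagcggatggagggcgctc
Cry1: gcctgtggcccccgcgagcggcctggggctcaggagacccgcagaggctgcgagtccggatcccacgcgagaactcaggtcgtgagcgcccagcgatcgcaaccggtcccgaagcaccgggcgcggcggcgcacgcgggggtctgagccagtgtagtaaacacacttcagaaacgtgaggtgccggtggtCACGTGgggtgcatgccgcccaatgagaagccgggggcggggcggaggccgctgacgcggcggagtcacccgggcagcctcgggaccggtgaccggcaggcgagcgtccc
Arntl: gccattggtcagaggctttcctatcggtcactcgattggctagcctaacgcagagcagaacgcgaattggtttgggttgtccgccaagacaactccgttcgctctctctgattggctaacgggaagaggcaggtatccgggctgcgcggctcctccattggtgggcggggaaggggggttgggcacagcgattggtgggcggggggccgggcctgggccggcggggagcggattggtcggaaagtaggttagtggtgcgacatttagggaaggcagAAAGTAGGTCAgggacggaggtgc
The Per3 window (chr4:151044616-151044915, minus strand) held 2 D-boxes, starting at -205 and -158 from the start site. The Per1 window (chr11:69098699-69098998, plus strand) held an E-box at -166, and the Cry1 window (chr10:85185005-85185304, minus strand) one at -60. The Arntl window (chr7:113207261-113207560, plus strand) held the RORE at 27 bases into the transcript. An E'-box lay at -79 in Cry1, at -166 in Cry2 and at -28 in Nr1d1, and no window of the 9 genes held the cAMP element. Of 32851 promoters of this length, 7.15% held an E-box, 4.68% an E'-box, 2.32% a D-box, 2.45% a RORE and 1.79% a cAMP element. Of the 13 promoters of the members, 2 held an E-box, 3 an E'-box, 1 a D-box, 1 a RORE and 0 a cAMP element, and the other windows of Per1 and Arntl held none. These are matches of letters, not measured sites.

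Library totals ran from 24458343 to 26389010 counts. Levels are counts-per-million (CPM) on library sizes scaled by TMM, a correction for differences in RNA composition, and differences are log2 fold changes of knockout minus control. A gene was called at a Benjamini-Hochberg adjusted p under 0.05 by edgeR's quasi-likelihood test over 13409 genes. Park7, the deleted gene, read 240, 229 and 266 CPM in the controls and 35.9, 41.5, 34.7 and 37.2 CPM in the knockouts, which gave a log2 difference of -2.71 (edgeR adjusted p = 3.09e-06, SE 0.0918). Of all tested genes, 14.5% were called, 6.56% higher and 7.94% lower, and 28.8% had groups that did not overlap. The higher share of calls was 45.2% with TMM and 33.5% with upper quartile scaling.

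Muscle fibre genes dominated every library: the 7 fibre markers summed to 102000 to 127000 CPM in the controls and 129000 to 199000 CPM in the knockouts. Of these markers 1 rose, Myh4, from a mean of 46300 CPM in the controls to 99900 CPM in the knockouts. Another 1 fell, Mb, from 3530 to 782 CPM, and the rest were not called. The higher sum in the knockouts therefore reflects mainly Myh4 and not fibre genes in general. The 9 slow fibre markers summed to 1860 to 2190 CPM in the controls and to 733, 141, 85.3 and 738 CPM in knockout 1 to 4 (4 of 9 fell, 0 rose). Summed macrophage markers ran from 51.7 to 87.0 CPM in the controls and from 34.8 to 53.8 CPM in the knockouts (3 of 8 fell), and fibroblast markers from 267 to 555 and from 193 to 297 CPM (3 of 6 fell). Pericyte and smooth muscle markers fell in 4 of 5 cases (341 to 482 against 315 to 382 CPM), erythroid markers in 3 of 5 (223 to 808 against 101 to 235 CPM) and adipocyte markers in 1 of 4 tested (148 to 186 against 87.9 to 141 CPM). No endothelial (6), satellite cell (4), Schwann cell (5) or tenocyte (2) marker was called, with sums of 183 to 230 against 155 to 175, 6.87 to 7.90 against 4.83 to 6.31, 38.8 to 168 against 23.1 to 37.8 and 3.70 to 11.7 against 2.82 to 8.71 CPM. Neutrophil and lymphocyte markers stayed under 1 CPM in sum in every library and were not tested. In bulk tissue, fewer cells of a type and less RNA per cell cannot be told apart, and the part of these differences in the clock values was not tested.

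In the immobilized muscle the REV-ERB genes were the most abundant members and Npas2 the least. Per kilobase of exon, the controls held 45.9 ± 6.17 CPM of Nr1d1, 27.4 ± 4.86 of Nr1d2, 8.56 ± 1.97 of Per1, 6.86 ± 2.33 of Cry2, 4.77 ± 2.16 of Per3, 3.61 ± 0.197 of Cry1, 3.06 ± 1.85 of Per2, 2.29 ± 0.582 of Clock, 2.20 ± 1.39 of Arntl and 0.132 ± 0.0985 of Npas2 (SD, n = 3). Only the steps from Nr1d1 to Nr1d2, from Nr1d2 to Per1 and from Arntl to Npas2 exceeded these spreads; the neighbours from Per1 down to Arntl overlapped. In the knockouts (SD, n = 4) the order began in the same way, with 61.0 ± 37.4 CPM per kilobase of Nr1d1, 25.5 ± 4.53 of Nr1d2 and 15.3 ± 7.51 of Per1, while Per3 (2.50 ± 0.756) and Per2 (2.04 ± 0.679) stood below Arntl (3.75 ± 1.38) and Clock (3.66 ± 0.598).

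Of the 10 clock genes, Cry1 and Clock were higher in the knockout and none was lower. That is 2 of 10 called where 14.5% of all tested genes were, a share near the background. An unadjusted p under 0.05 was reached by 5 of 10, against 31.6% of all genes. Of the fold changes, 7 were positive and 3 negative, against 50.7% positive among all genes, with a median of 0.47 beside 0.006 for all genes. The number called was 0 without control 2 or knockout 3, 1 without control 3, knockout 1 or knockout 4, and 4 without knockout 2, when Nr1d1 and Per1 were also called. Without control 1 it was 2, Clock higher and Per3 lower.

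**Figure D1:**
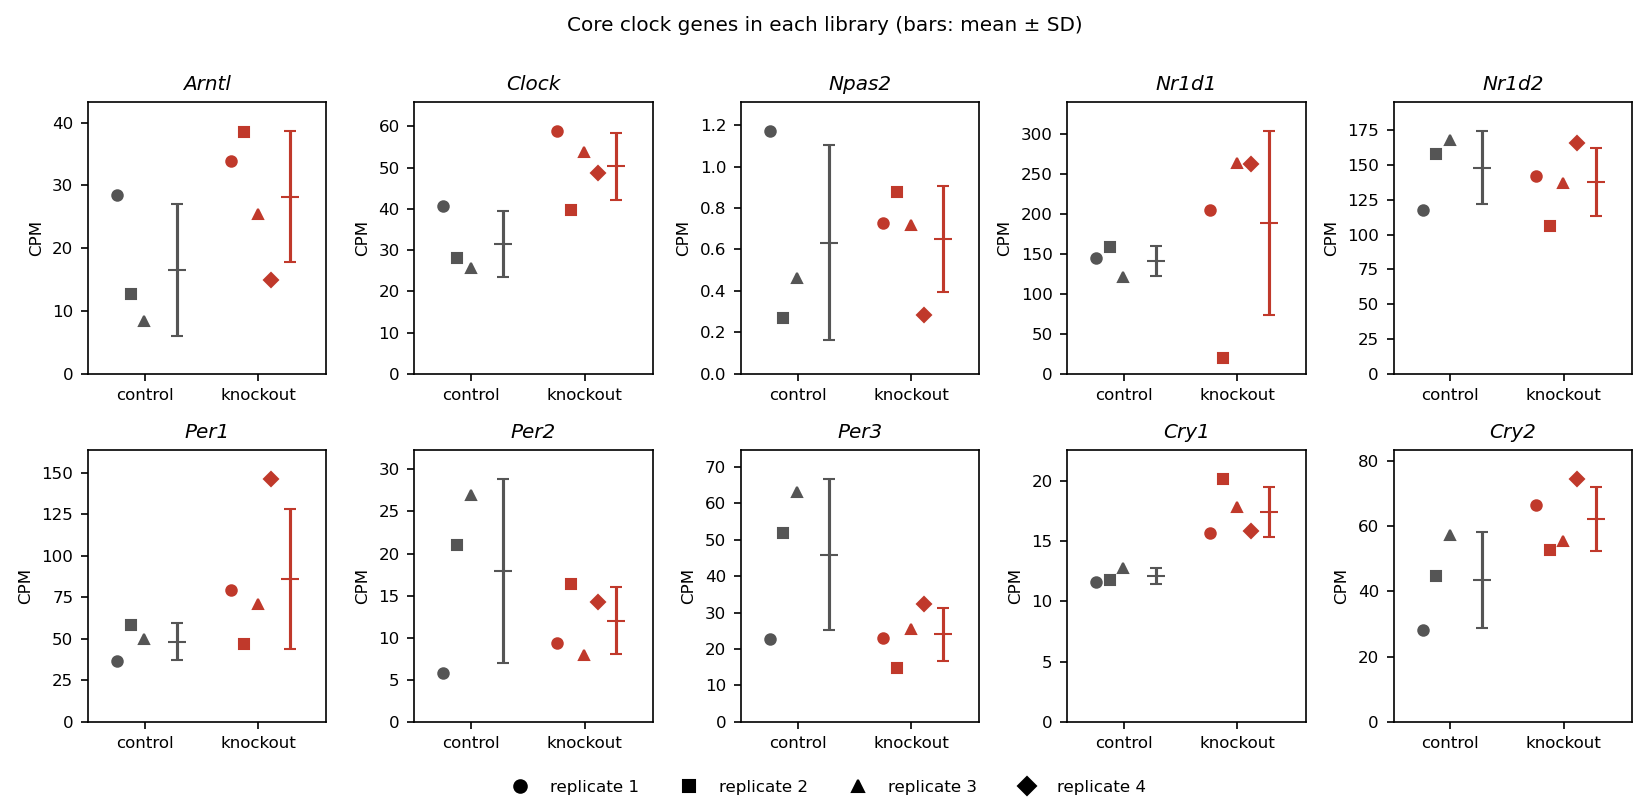
Level of each core clock gene in CPM (vertical axes, linear from 0) in the 3 control and 4 knockout libraries. Symbols mark the replicate and the bars beside them the mean ± SD. Cry1 is the member with no overlap, and the knockout 2 square of Nr1d1 lies at 20.0 CPM, under all other libraries.

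Among the activators, Clock was called and Arntl was not. Clock, which encodes the DNA-binding partner of BMAL1, read 40.6, 28.1 and 25.7 CPM in the controls and 58.8, 39.6, 53.9 and 48.7 CPM in the knockouts. Control 1 lay just above knockout 2, and otherwise every knockout was above every control. The level rose 1.60-fold, a log2 difference of 0.68 ± 0.18 (SE) with an edgeR adjusted p of 0.0378. The call ended without control 2 (adjusted p = 0.112), control 3 (0.123), knockout 1 (0.0753), knockout 3 (0.0893) or knockout 4 (0.0711), and with upper quartile scaling (0.0517); DESeq2 gave 0.00464.

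Arntl, the gene of BMAL1 that is needed for any rhythm, read 28.4, 12.7 and 8.46 CPM in the controls and 33.8, 38.5, 25.5 and 15.0 CPM in the knockouts. The groups overlapped through control 1, whose level was 3.35 times that of control 3, and through knockout 4. The log2 fold change was 0.77 (SE 0.42, adjusted p = 0.243) and ran from 0.46 without control 3 (adjusted p = 0.513) to 1.41 without control 1 (adjusted p = 0.0591). Npas2, the relative of Clock, had 7 to 29 counts in a library, or 1.17, 0.268 and 0.464 CPM in the controls and 0.726, 0.875, 0.717 and 0.282 CPM in the knockouts. Its log2 fold change of 0.05 (SE 0.52, adjusted p = 0.956) ran from -0.31 without control 2 to 0.82 without control 1, so no direction can be given.

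Neither of the REV-ERB genes, repressors of Arntl, was called, and for Nr1d1 a single library lay far below the others. Nr1d1 read 145, 158 and 121 CPM in the controls and 205, 20.0, 264 and 262 CPM in the knockouts. Knockout 2, with 526 counts, lay below every control, and the other knockouts lay above every control. Over all libraries the log2 fold change was 0.41 (SE 0.636, adjusted p = 0.695). Without knockout 2 it was 0.79 (SE 0.135, adjusted p = 0.0106). Nr1d1 lies on the minus strand of chromosome 11 (98767932 to 98775333, GRCm38), and 263 bases of its exons, 8.5% of them, overlap exons of the thyroid hormone receptor gene Thra on the other strand. Its deposited counts had a fractional part in 7 of 7 libraries, as did those of 2245 of the 21487 genes in at least 1 library, which marks reads shared with other genes, and no source used here gives the strand of the protocol. Thra itself read 52.3 CPM in knockout 2 and 58.3 to 90.5 CPM elsewhere, against 20.0 CPM and 121 to 264 CPM for Nr1d1.

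Nr1d2, the paralog of Nr1d1, read 118, 158 and 168 CPM in the controls and 142, 106, 137 and 166 CPM in the knockouts, and the groups overlapped throughout. Its log2 fold change was -0.10 (SE 0.162, adjusted p = 0.702). Knockout 2 was the lowest library for both paralogs, but in log2 units its deviation from the group mean was -2.69 for Nr1d1 and -0.36 for Nr1d2.

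The Per genes, which encode the PERIOD repressors, did not move one way. Per1, which also responds to hormones and other acute signals, read 36.4, 58.4 and 49.7 CPM in the controls and 79.7, 47.2, 70.9 and 146 CPM in the knockouts. Knockout 2 lay among the controls and the other knockouts above them, and the log2 difference was 0.83 ± 0.337 (SE), with an edgeR adjusted p of 0.128. Without knockout 2 it was 1.04 (adjusted p = 0.0389), and without knockout 4 it was 0.45 (adjusted p = 0.228). Per2 read 5.83, 21.0 and 26.9 CPM in the controls and 9.36, 16.4, 7.93 and 14.2 CPM in the knockouts. Control 1 was lower than every knockout and the other controls higher than every knockout, so the mean difference of -0.58 (SE 0.44, adjusted p = 0.397) joins unlike controls; without control 1 it was -1.01 (adjusted p = 0.0653) and without control 3 it was -0.17 (adjusted p = 0.845).

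Per3, which is not required for the core loop but is strongly rhythmic in peripheral tissue, had the largest absolute difference of the 10 members with all libraries and TMM scaling. It read 22.8, 51.7 and 63.0 CPM in the controls and 23.1, 14.8, 25.5 and 32.4 CPM in the knockouts. Control 1 lay within the knockout range and the other controls above it. The log2 fold change was -0.93 (SE 0.335, adjusted p = 0.0944). It was -1.26 without control 1 (SE 0.25, adjusted p = 0.0311) and -0.64 without control 3 (adjusted p = 0.298). Its log2 fold change lay between -0.64 and -1.26 with any 1 library left out.

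The Cry genes, partners of the PERIOD proteins and the stronger repressors of the activator pair, both had positive fold changes. Cry1 read 11.6, 11.8 and 12.8 CPM in the controls and 15.7, 20.1, 17.8 and 15.8 CPM in the knockouts. Every knockout lay above every control, as was the case for 14% of all tested genes. The level rose 1.44-fold, a log2 difference of 0.52 ± 0.112 (SE) with an edgeR adjusted p of 0.0183, and the call ended without control 1 (0.0694), control 2 (0.0596) or knockout 3 (0.0502). Cry2 read 28.1, 44.7 and 57.4 CPM in the controls and 66.4, 52.8, 55.5 and 74.3 CPM in the knockouts, with control 3 inside the knockout range. Its log2 fold change was 0.52 (SE 0.22, adjusted p = 0.142) and ran from 0.28 without control 1 (adjusted p = 0.346) to 0.78 without control 3 (adjusted p = 0.0705). Exons of the antisense transcript D930015M05Rik overlap 4.7% of those of Cry2, whose deposited counts had a fractional part in 0 libraries.

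**Figure D2:**
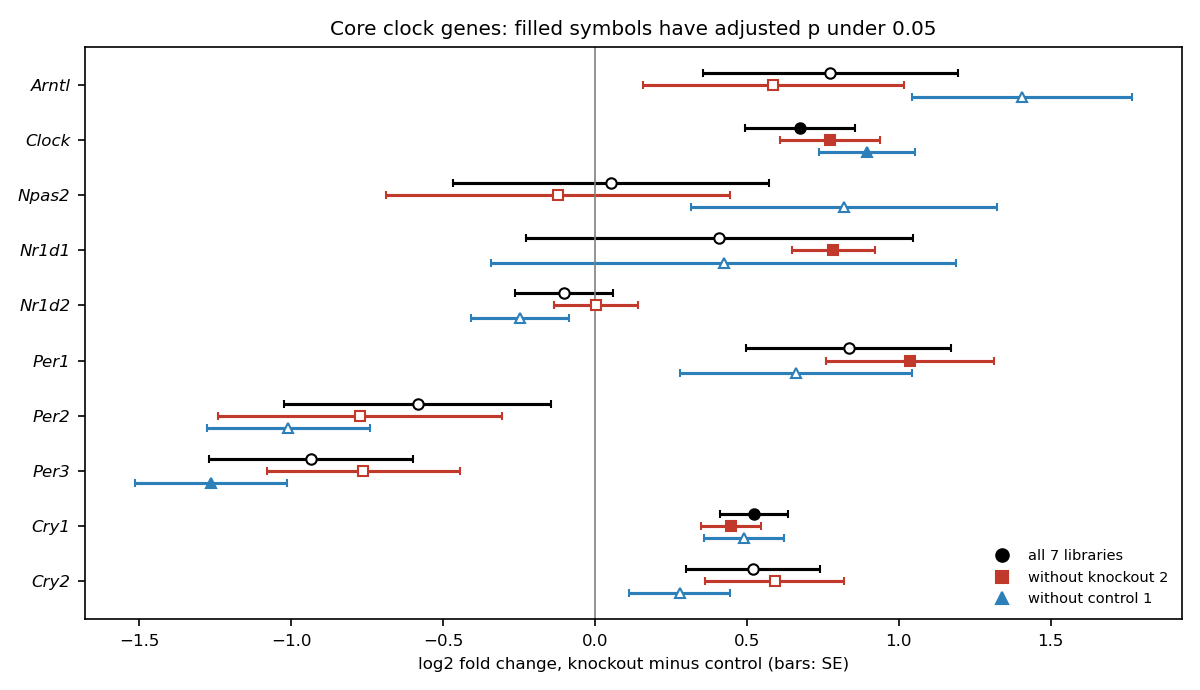
Log2 fold change, knockout minus control (horizontal axis, bars are SE), of each core clock gene with all 7 libraries (circles), without knockout 2 (squares) and without control 1 (triangles). Filled symbols have an adjusted p under 0.05: Nr1d1 and Per1 are filled without knockout 2 and Per3 without control 1, while Cry1 is open without control 1.

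The spread among libraries of one group was wide for most of the clock. The pooled within-group SD of log2 CPM was 0.73 for Arntl, 0.77 for Npas2, 1.40 for Nr1d1, 0.57 for Per1, 0.83 for Per2 and 0.61 for Per3, and these 6 genes lay among the 10% of tested genes with the widest spread. The median was 0.59 over the members and 0.19 over all tested genes. Among genes within 0.5 of their own average log2 level, Arntl stood at percentile 99.2, Per2 at 99.5, Per3 at 98.8 and Per1 at 98.7. Cry1 had the smallest spread, with an SD of 0.14 (percentile 44.7 by the same measure), followed by Nr1d2 (0.27, percentile 85.4) and Clock (0.29, percentile 90.3). The wide spread of Nr1d1 came largely from knockout 2, at 20.0 CPM. Its controls ran from 121 to 158 CPM and the other knockouts from 205 to 264 CPM.

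Some members were high and low in opposite libraries. Control 1 had the highest Arntl and Npas2 of the controls and their lowest Per1, Per2, Per3, Cry2 and Nr1d2. Knockout 4 had the lowest Arntl and Npas2 of the knockouts and their highest Per1, Per3, Cry2 and Nr1d2, while its Clock, Nr1d1 and Per2 were not extreme in the group. In log2 units, control 1 deviated from the mean of the controls by 0.96 for Arntl, -1.34 for Per2 and -1.34 for Dbp. Knockout 4 deviated from the mean of the knockouts by -0.83 for Arntl, 0.49 for Per3 and 0.94 for Dbp. Control 1 also stood apart in summed Schwann cell markers (168 CPM, against 38.8 and 49.3 CPM in control 2 and control 3), whose part in the clock values was not tested. Knockout 2 had the highest Arntl and Npas2 of the knockouts and their lowest Per1, Per3, Cry2, Nr1d1, Nr1d2 and Dbp. It also had their lowest Clock, an activator gene, and their highest Per2 and Cry1.

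Across all 7 libraries Per3 ran opposite to Arntl, with Pearson's r = -0.963 (exact permutation p = 0.000794, 0.00873 adjusted over 11 relations) and Spearman's rho = -0.964 (exact permutation p = 0.00278, adjusted 0.0306). Without control 2 and control 3, the libraries farthest from the median of Arntl, r was -0.881. Nr1d2 also ran opposite to Arntl (r = -0.844, exact permutation p = 0.0107, adjusted 0.0393; rho = -0.857, exact permutation p = 0.0238, adjusted 0.0873; r = -0.806 without those controls). The same held for the output gene Dbp (r = -0.854, exact permutation p = 0.0159, adjusted 0.0437; rho = -0.857, exact permutation p = 0.0238, adjusted 0.0873; r = -0.81 without those controls). Nfil3, a repressor at D-boxes, ran with Arntl (r = 0.865, exact permutation p = 0.00873, adjusted 0.0393; rho = 0.821, exact permutation p = 0.0341, adjusted 0.0938; r = 0.583 without those controls). The other 7 relations did not pass by r (adjusted p = 0.141 to 0.781). Each group alone holds too few libraries for a test; after subtraction of group means r was -0.946 for Per3, -0.896 for Nr1d2, -0.988 for Dbp, 0.824 for Nfil3 and -0.893 for Cry2. The permutations shuffled all 7 libraries without regard to group. Their p-values therefore also take in differences between the groups and do not measure covariation within them. All values of a library share its depth and its RNA.

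**Figure D3:**
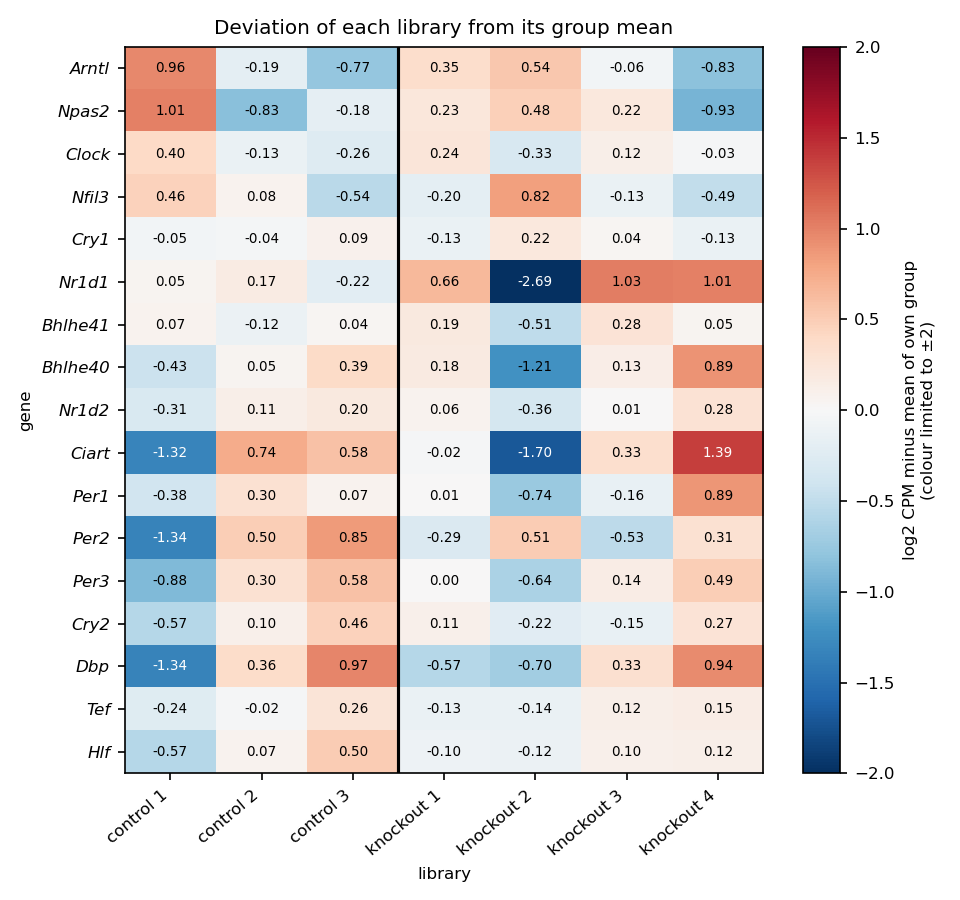
Log2 CPM of the clock genes and of associated genes (rows) in each library (columns) minus the mean of that library's own group, with the value printed in each cell. Control 1 is high in Arntl (0.96) and low in Per2 (-1.34), knockout 4 is low in Arntl (-0.83), and knockout 2 stands apart in Nr1d1 (-2.69).

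Ratios within a library, which need no scaling between libraries, placed the groups on one overlapping range. The log2 ratio of Arntl to Dbp was 0.74, -2.12 and -3.32 in the controls and 0.36, 0.68, -0.95 and -2.33 in the knockouts. That of Arntl to Per3 was 0.32, -2.02 and -2.90 in the controls and 0.55, 1.38, 0.00 and -1.12 in the knockouts. Control 1 stood at the top of the first range, next to knockout 2, and between knockout 1 and knockout 3 by the second. Among the controls, control 2 was nearest to knockout 4 by both. By sign alone, the fold changes of the activator genes Arntl, Clock and Npas2 and of the repressor genes Nr1d1, Per1, Cry1 and Cry2 were positive and those of Nr1d2, Per2 and Per3 negative. The sign of Npas2 turned without control 2, control 3, knockout 1 or knockout 2, and that of Nr1d2 without knockout 2. With a term for replicate number, Nr1d1 turned negative. Clock and Cry1 alone were called, and no test compared the arms. Whether the groups or single muscles were collected at different hours was not tested, since no source used here gives a collection time.

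Among factors that tune the clock, Rora, Fbxw11 and Nono rose. This list and the output and signal lists below were drawn up with earlier results of these data known. Of 20 tested modifiers, 3 rose and 0 fell, a share close to the 14.5% called among all tested genes, with a median log2 fold change of 0.09. Rora, the activator that competes with REV-ERB at RORE sites, stood at 93.1 ± 6.35 CPM in the 3 controls and rose to 126 ± 9.46 CPM (SD) in the 4 knockouts, a log2 difference of 0.44 ± 0.0876 (SE) with an edgeR adjusted p of 0.015 (0.0649 if control 1 and 0.0577 if control 3 was left out). Fbxw11, part of a ubiquitin ligase that marks PERIOD proteins for breakdown, rose by 0.40 (adjusted p = 0.0173, and 0.0558 to 0.0659 without any 1 control). Nono, which binds PERIOD proteins, rose by 0.33 (adjusted p = 0.0329); its call ended without any control, knockout 3 or knockout 4 (0.0768 to 0.121) and with upper quartile scaling (0.0528). No modifier was called without control 1 or control 3, 1 was without control 2 and 6 were without knockout 2. Ciart, a repressor of the activator pair, read 2.25, 9.70 and 8.65 CPM in the controls and 6.89, 2.09, 8.80 and 18.4 CPM in the knockouts (adjusted p = 0.713), low in control 1 and knockout 2 as Per3 was.

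Of 15 tested output genes, 1 rose and 0 fell, where 14.5% of all tested genes were called and 6.56% were higher, and the median log2 fold change was 0.01. Nfil3 read 18.0, 13.8 and 8.92 CPM in the controls and 26.5, 53.7, 27.7 and 21.5 CPM in the knockouts, without overlap. The log2 difference was 1.25 ± 0.336 (SE), with an edgeR adjusted p of 0.0386. The call held without knockout 2 or knockout 4, when 1 and 2 output genes were called, and ended without any control, knockout 1 or knockout 3 (adjusted p = 0.0511 to 0.117), when 0 were; it also ended with a robust prior (0.0771). Dbp, the D-box activator, read 17.0, 55.2 and 84.4 CPM in the controls and 26.3, 24.0, 49.1 and 75.4 CPM in the knockouts (log2 fold change -0.26, SE 0.523, adjusted p = 0.772). The fold change of Dbp was 0.27 without control 3. Its relatives Tef and Hlf stood at 362 ± 62.8 and 11.6 ± 4.16 CPM in the controls and 364 ± 38.8 and 12.7 ± 1.13 CPM in the knockouts (log2 fold changes 0.006 and 0.12, adjusted p = 0.98 and 0.739). Exons of Sphk2 on the other strand overlap 18% of those of Dbp.

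Genes linked to signals known to reset peripheral clocks gave a mixed picture. These lists too were drawn up with earlier results of these data known, so their shares and medians are a description only. Of 9 genes of the glucocorticoid response, 4 rose and 0 fell (6.56% of all tested genes rose), with a median log2 fold change of 0.91 beside 0.006 for all tested genes: Tsc22d3, an anti-inflammatory mediator, by 1.08 (edgeR adjusted p = 0.00359), Nr3c1, the receptor itself, by 0.42 (adjusted p = 0.0136, and 0.0556 without control 3), Fkbp5, a chaperone that restrains the receptor, by 0.91 (adjusted p = 0.0146) and Ddit4, a brake on mTOR (by 1.94, adjusted p = 0.0172, and 0.0582 without control 2 or 0.0677 without control 3). Per1 is a known target of the same receptor, and a part of it in the Per1 values was not tested. Of 8 tested cAMP and immediate early genes 1 rose, beside the same 6.56%, the kinase gene Sik1, by 0.81 (adjusted p = 0.02, and 0.0601 without control 2 or 0.0727 without control 3). Of 8 temperature-responsive genes none was called and 0 had an unadjusted p under 0.05 by edgeR; the chaperone gene Hsp90aa1 came closest, at 0.32 (adjusted p = 0.228).

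Per3 is also a neighbour of the deleted gene. Park7 (150897133 to 150914437) and Per3 (151003652 to 151044665) lie on the minus strand of chromosome 4 in GRCm38, 89.2 kb apart, and Per3 lies within the long gene Camta1, a transcription factor gene. Of the 5 tested genes within 500 kb of Park7, none was called with the main settings. Camta1 read 26.0, 30.6 and 25.5 CPM in the controls and 20.1, 23.1, 15.8 and 21.0 CPM in the knockouts, without overlap (log2 fold change -0.45, SE 0.131, adjusted p = 0.05, just above the threshold). Camta1 was called in all 7 alternatives that kept every library (adjusted p = 0.0197 with DESeq2 to 0.05 with the filter on the mean count, just under the threshold). Among these is a fit with a replicate term, to which knockout 4 adds nothing. With a single library left out, Camta1 was called only without knockout 2 (edgeR adjusted p = 0.0287). Leaving out any other library gave 0.0806 to 0.155. Vamp3, which encodes a vesicle fusion protein and adjoins Per3, had a log2 fold change of 0.24 (adjusted p = 0.0526), Rere one of 0.45 (adjusted p = 0.0916) and Errfi1 one of 0.18 (adjusted p = 0.202). Per3 itself stood at 22.8 CPM in control 1, within the knockout range, and at 51.7 and 63.0 CPM in control 2 and control 3, above it. Whether the engineered allele or its flanking DNA bears on Per3 was not tested.

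**Figure D4:**
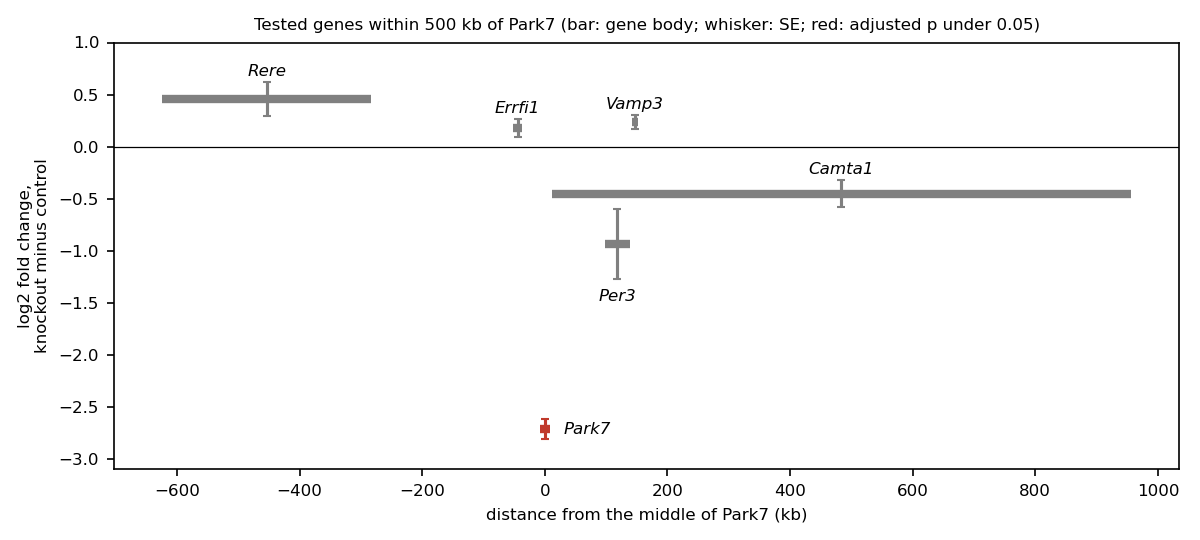
Log2 fold change, knockout minus control (vertical axis), of tested genes within 500 kb of Park7 against distance from the middle of Park7 in kb. Horizontal bars span the gene body, whiskers are SE and red marks an adjusted p under 0.05, which Park7 alone reached. Per3 and Camta1 lie below 0, Rere, Errfi1 and Vamp3 above it.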

How the data were processed

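RNA of immobilized gastrocnemius was sequenced in 7 libraries. The authors aligned reads to mm10 with STAR 2.7.10a and counted genes with RSEM 1.2.28, per the submitters' processing notes, and deposited expected counts per gene, which were rounded here. Neither annotation nor strand is stated in those notes. Of 21485 distinct symbols, 17956 matched a single gene of GENCODE M21 (GRCm38), the source of positions and exon lengths; 24 rows carried symbols turned into dates.

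Genes were filtered by filterByExpr, scaled by TMM and tested in R 4.3.3 with edgeR 4.0.16 (quasi-likelihood, group as the only term), with Benjamini-Hochberg adjustment over all tested genes. A standard error is the size of the log2 fold change divided by the root of its F statistic. Log2 CPM used a prior count of 2. On simulated data of this design the test recovered 28% of genes changed 1.5-fold, 75% changed 2-fold and 98% changed 4-fold, and 5.13% of calls were false. Each simulated gene was given the typical spread of genes at its level. The shares therefore do not describe members with a wider spread, such as Arntl, Nr1d1, Per1, Per2 and Per3.

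The members and lists were chosen with earlier results of these data known. Named were all members, every called modifier and output gene plus Dbp, Tef, Hlf, Nfil3 and Ciart, up to 3 called genes of each signal list (all 4 of the glucocorticoid list), and genes near Park7. The alternatives were DESeq2 1.42.0, scaling by RLE or upper quartile, 2 other filters (none, or an average count of 10 or more), a robust prior, a replicate block and each library left out.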

Additional observations from a re-analysis of the deposited data

Results flagged for a closer look

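Nr1d1 in knockout 2 stood far from the other knockouts: its log2 CPM was 4.33, against 7.68 to 8.05 in the other 3, and the gap took 0.9 of the whole range, above the 95% limit of Dixon's test for 4 samples. On the linear CPM scale the share was 0.755 and did not pass. Each gene named among the members, associated clock genes and neighbours of Park7 was examined on both scales in the knockouts, and chance passes about 1 in 20 such groups. The list held 24 genes, of which an untested neighbour of Park7 was skipped, and Nr1d1 alone passed. A single pass in a list of that length can arise by chance. The 3 controls are too few for this test.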

How the results depend on the processing

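With all libraries kept, the count of core clock genes called was 2 in each fit except upper quartile scaling, which gave 1 (1 higher), where Clock stood at 0.62. The replicate block turned Nr1d1 to -0.29, Tef to -0.035 and Ciart to -0.18, left 1 modifier called (Fbxw11 at an adjusted p of 0.0544 and Nono at 0.0755 were not) and 1224 genes in all (1944 without it). Replicate 4 has no control, so knockout 4 adds nothing to the group difference in the block fit. Leaving knockout 4 out, with no block, called 1243 genes. The labels' numbers do not show shared animals: same-numbered controls and knockouts had deviations correlated at 0.0945, 0.134 and 0.0854, each control best with its own number, which is a hint from the data and not the design. DESeq2 called 5 modifiers, the robust prior 0 output genes, and upper quartile scaling put Tef at -0.043. Leaving out 1 library at a time gave 0 to 4 core clock genes called (0 to 4 higher, 0 to 1 lower), 0 to 6 modifiers, 0 to 2 output genes and 775 to 2025 genes in all. Log2 fold changes then ran from 0.46 to 1.41 for Arntl, 0.28 to 0.78 for Cry2, 0.55 to 0.89 for Clock, -0.31 to 0.82 for Npas2, 0.20 to 0.79 for Nr1d1, -0.25 to 0.0031 for Nr1d2, 0.45 to 1.04 for Per1, -1.01 to -0.17 for Per2, -1.26 to -0.64 for Per3, 0.45 to 0.57 for Cry1, -0.68 to 0.27 for Dbp, -0.11 to 0.15 for Tef, -0.13 to 0.40 for Hlf and -0.21 to 0.73 for Ciart. Without both control 1 and knockout 2, a setting chosen after seeing the data, 4 core clock genes were called, 2 of them lower (Per2 at -1.20 and Per3 at -1.09, with Nr1d1 at 0.80 and Clock at 0.99 higher), Cry1 was not (0.41), and 1 modifier and 1195 genes in all were called, with Tef at -0.067 and Hlf at -0.086. The cause of these changes was not tested, beyond the smaller number of libraries. Npas2 rests on 7 to 29 counts in a library.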

Other observations

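The 5 genes whose log2 CPM followed Arntl most closely over the 7 libraries were Hps3 (r = 0.972), Sqrdl (0.964), Ptpn9 (0.959), AI607873 (0.954) and Pla1a (0.953), among tested genes with an average log2 CPM above 1. Those closest to Nr1d1 were Gatsl2 (0.976), Nfia (0.976), Tob1 (0.973), Bcl2l2 (0.97) and Ypel5 (0.966). The log2 CPM of Nr1d1 was 4.33 in knockout 2 and 6.92 to 8.05 in the other libraries, so knockout 2 weighs heavily in its r values. None of these 10 genes was called between knockout and control (adjusted p = 0.298 to 0.928), and the highest values among so many genes over 7 libraries are a description only.

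Knockout 2, the library with low Nr1d1, also held the highest level of the nuclear receptor gene Nr4a3 (59.6 CPM, against 0.844 to 3.30 CPM in the other 6 libraries) and of the myogenic factor gene Myod1 (44.6 CPM, against 9.13 to 13.1 CPM). Both were singled out after their values were seen.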
